A study of Mus musculus with 9 samples.

Results

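Endothelial lipase (Lipg) and the other lipases that release fatty acids outside the cell, in the lysosome and at the lipid droplet, with their cofactors, were followed in LPS-stimulated mouse macrophages. The set was chosen by gene symbol and lists 8 genes: Lipg, Lpl, Lipa, Pnpla2, Lipe, Mgll, Abhd5 and G0s2. 7 of them were found among the 15343 genes of the deposited table, and G0s2 was not analysed here. All 7 passed the filter on low values, which kept 13895 genes. Lipg was chosen because it was low after pretreatment in an earlier fit of the same libraries, so its values are given as a description with no test, and the remaining 6 genes were tested.

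RNA was sequenced from intraperitoneal macrophages of mice titled WT, whose strain is written CF7B1/6. The first group (DHA) received 100 µM of the omega-3 fatty acid docosahexaenoic acid for 1 h and then LPS. The second group (cpdA) received 10 µM cpdA, a compound described as a small-molecule agonist of the fatty acid receptor Gpr120, for 1 h and then LPS. The third group (LPS) received LPS with no pretreatment named in its labels. LPS (lipopolysaccharide of the bacterial wall, detected through TLR4) was given to all groups at 100 ng/ml for 6 h, and no unstimulated library was analysed here. Each group had 3 libraries, and the labels do not say whether these came from separate animals or cultures, so p-values measure only the spread between libraries, which may be technical. The protocols for growth and extraction attached to the samples speak of neural stem cells and of DNA bound to histones, which points to experiments of another kind, and nothing was taken from them. No source used here gives the age or number of the mice or the vehicle of the compounds.

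Lipases split the ester bonds of stored or transported fat. Lipoprotein lipase (Lpl) and endothelial lipase (Lipg) are secreted, bind to the cell surface and act on lipoproteins, Lpl mainly on triglycerides and Lipg mainly on the phospholipids of high-density lipoprotein, and macrophages are a known source of both. Lysosomal acid lipase (Lipa) breaks down cholesteryl esters and triglycerides taken up with lipoproteins or dead cells. At the lipid droplet, adipose triglyceride lipase (Pnpla2), hormone-sensitive lipase (Lipe) and monoglyceride lipase (Mgll) remove the fatty acids of a triglyceride in sequence; Abhd5 switches Pnpla2 on and G0s2 holds it back.

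Values are normalized counts, that is reads divided by a size factor for each library, and they compare libraries for a gene but not genes with each other, since gene length is not taken into account. The reads recovered per library numbered 13797079 to 37572822, with the lowest number in DHA 1. 2 libraries stood apart from the rest of their groups: LPS 3 and cpdA 3. For each pair of libraries, the median squared difference in normalized count, over kept genes with enough reads, was set against that expected from sampling. This ratio was 10.7 and 11.2 between LPS 3 and the rest of its group. It was 20.6 and 21.8 between cpdA 3 and the rest of its group, and 2.00 between LPS 1 and LPS 2. For DHA 1 and cpdA 1, from different groups, it was 1.33, the lowest value of any pair. On this measure the noise is largest for the shallow DHA 1. By the SD of log2 differences, DHA 1 and cpdA 1, at 0.355, were less close than cpdA 1 and cpdA 2 at 0.298 or LPS 1 and LPS 2 at 0.306. Whether libraries were exchanged between groups cannot be told from the labels and was not tested, and the group means below take the labels as they stand. Results are given with all 9 libraries, and the changes of the lipases without LPS 3 and cpdA 3 are drawn beside them in the plot of log2 changes. Leaving both out keeps 2 libraries each in cpdA and LPS. All 8 macrophage markers examined were present, with summed normalized counts of 562622 to 584779 in DHA, 386341 to 588638 in cpdA and 332922 to 585247 in LPS. Most of the sum came from Lyz2, at 269048 in cpdA 3 and 210386 in LPS 3. Lyz2, Emr1, Itgam and Cd14 were lowest of their group in both libraries. Csf1r was highest of its group in cpdA 3 and lowest in LPS 3. Mertk and Fcgr1 ran the other way, and Cd68 was highest of its group in both. In each pretreated group fewer cells of a type and less RNA per cell cannot be told apart.

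Lipg (Entrez 16891) was lower in every pretreated library than in every LPS library. Its normalized counts were 172, 134 and 150.2 in DHA 1, 2 and 3, against 613, 569 and 2683 in LPS 1, 2 and 3. In cpdA 1, 2 and 3 they were 184, 200.1 and 21.7. The DHA libraries lay close together, whereas 1 cpdA library was far below and 1 LPS library far above the others of its group. The means were 152 ± 18.8 in DHA, 135 ± 98.7 in cpdA and 1288 ± 1208 in LPS (SD, n = 3 each). On the scale of log2(normalized count + 1), the difference of means was -2.69 for DHA against LPS and -3.37 for cpdA against LPS.

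The size of the Lipg difference depended on LPS 3 and cpdA 3. Without both libraries it was -1.96 in DHA against LPS and -1.62 in cpdA against LPS. Leaving out LPS 3 alone gave -1.96 for DHA and -2.65 for cpdA, and leaving out cpdA 3 alone gave -2.34 for cpdA. Behind the values stood 77, 119 and 135 recovered reads in DHA, 174, 244 and 24 in cpdA, and 564, 494 and 2622 in LPS, so the value of cpdA 3 rests on few reads. In order, the libraries ran LPS 3, LPS 1, LPS 2, cpdA 2, cpdA 1, DHA 1, DHA 3, DHA 2 and cpdA 3, which puts cpdA 3 below all DHA libraries and the other cpdA libraries above them.

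**Figure D1:**
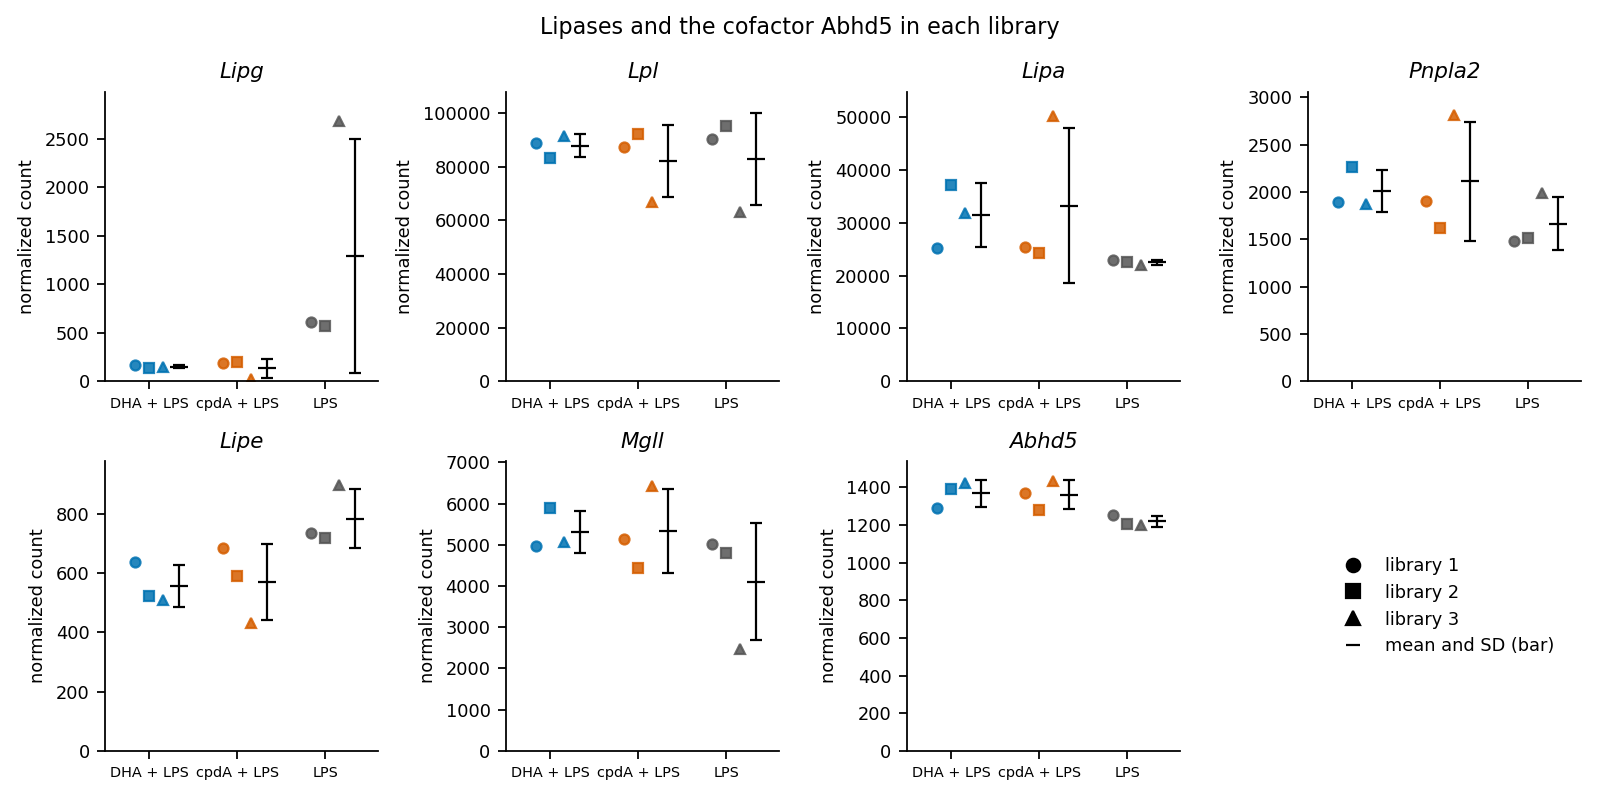
Normalized counts of the 7 lipase genes analysed, 1 panel per gene with its own axis from 0; points are the 3 libraries of the DHA, cpdA and LPS groups (from left to right) and the black bars the mean with its SD. Lipg lies between 21.7 and 200.1 in the pretreated libraries and between 569 and 2683 in LPS, and LPS 3 or cpdA 3 stands apart in most panels.

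Lipg is named for the endothelium, and endothelial markers were detected here. 5 of 7 were in the table, with summed normalized counts of 1905 to 2351 in DHA, 1738 to 2138 in cpdA and 1438 to 2292 in LPS, and the groups overlapped. Most of the sum came from Vwf, the von Willebrand factor, which had 1723, 2042 and 1610.3 in DHA and 1713, 1767 and 1575 in cpdA, against 1809 (LPS 1), 1604 (LPS 2) and 757 (LPS 3). Its lowest value was in LPS 3, where Lipg was highest. The VEGF receptor gene Kdr had 249.7, 252 and 237 in DHA and 254, 298.5 and 129 in cpdA, against 368, 319 and 598 in LPS, so it was lower in all pretreated libraries and highest in LPS 3, as Lipg was. Cdh5, the cadherin of endothelial junctions, had 51.3, 35.0 and 35.6 in DHA and 41.3, 48.4 and 19.9 in cpdA, against 78.3, 38.0 and 45 in LPS, with overlap between the groups. Pecam1 had 8.9, 15.8 and 12.2 in DHA, 6.3, 14.8 and 14.5 in cpdA, and 23.9, 20.7 and 36.8 in LPS. At these low values it too was lower in all pretreated libraries and highest in LPS 3. Tie1 had 11.1, 6.8 and 10 in DHA, 13.8, 9 and 0 in cpdA, and 13, 16.1 and 1 in LPS, with overlap. Markers of mesothelium and fibroblasts were more abundant, with sums of 31007 to 33029 in DHA, 32219 to 37255 in cpdA and 28552 to 49262 in LPS, for 10 of 10 listed genes. Among them Dcn, a collagen-binding proteoglycan, had 3658, 3694 and 3881 in DHA and 3638, 4073 and 6328 in cpdA, against 4204, 3640.3 and 8706 in LPS, and was high in the libraries that stand apart. Pdgfra was also high there, at 8132 in cpdA 3 and 7062 in LPS 3. In cpdA 3 the list did not move as 1. Col1a1 had its lowest value in cpdA 3, at 6027, against 8141 in cpdA 1 and 8645 in cpdA 2. Col1a2 was at 9944.5 in cpdA 3, against 11187 in cpdA 1 and 11826 in cpdA 2. In LPS 3, however, Col1a1 was at 8071 and Col1a2 at 14288, each the highest of the LPS libraries. Of the list, all but Msln and Krt8, both at low values, were highest there among the LPS libraries. The neutrophil gene S100a8 had 352, 303 and 381 in DHA and 378, 329.6 and 44.4 in cpdA, against 248, 255 and 71.6 in LPS, and was low in LPS 3 and cpdA 3. The part of these cell types in the lipase values was not tested.

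Among 11363 genes with a mean of at least 50, the 5 with the pattern most like Lipg over the 9 libraries were Themis2, Fcgr1, Cxcl10, Gm14446 and Ctsh. Their Pearson r with Lipg on the log2 scale was 0.999 for Themis2, a signalling adaptor of B cells and macrophages, 0.997 for Fcgr1, the high-affinity receptor for IgG, and 0.997 for Cxcl10, an interferon-induced chemokine. It was 0.995 for Gm14446, a predicted gene whose reads may be shared with near-identical copies, and 0.994 for Ctsh, the lysosomal protease cathepsin H. In all, 728 of these genes had an r above 0.9, and the 9 libraries share group, depth and the 2 libraries that stand apart.

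Themis2 had 2958, 2573 and 2539 in DHA and 2936, 3010.0 and 1279 in cpdA, against 4884, 4675 and 8885 in LPS. Fcgr1, which is also among the macrophage markers above, had 2388, 2108 and 2350.4 in DHA and 2486, 2748 and 957 in cpdA, against 4598, 4159 and 10269 in LPS. Both had their lowest value in cpdA 3 and their highest in LPS 3. Without these 2 libraries r with Lipg was 0.994 for Themis2, 0.994 for Fcgr1, 0.984 for Cxcl10, 0.980 for Gm14446 and 0.974 for Ctsh.

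**Figure D2:**
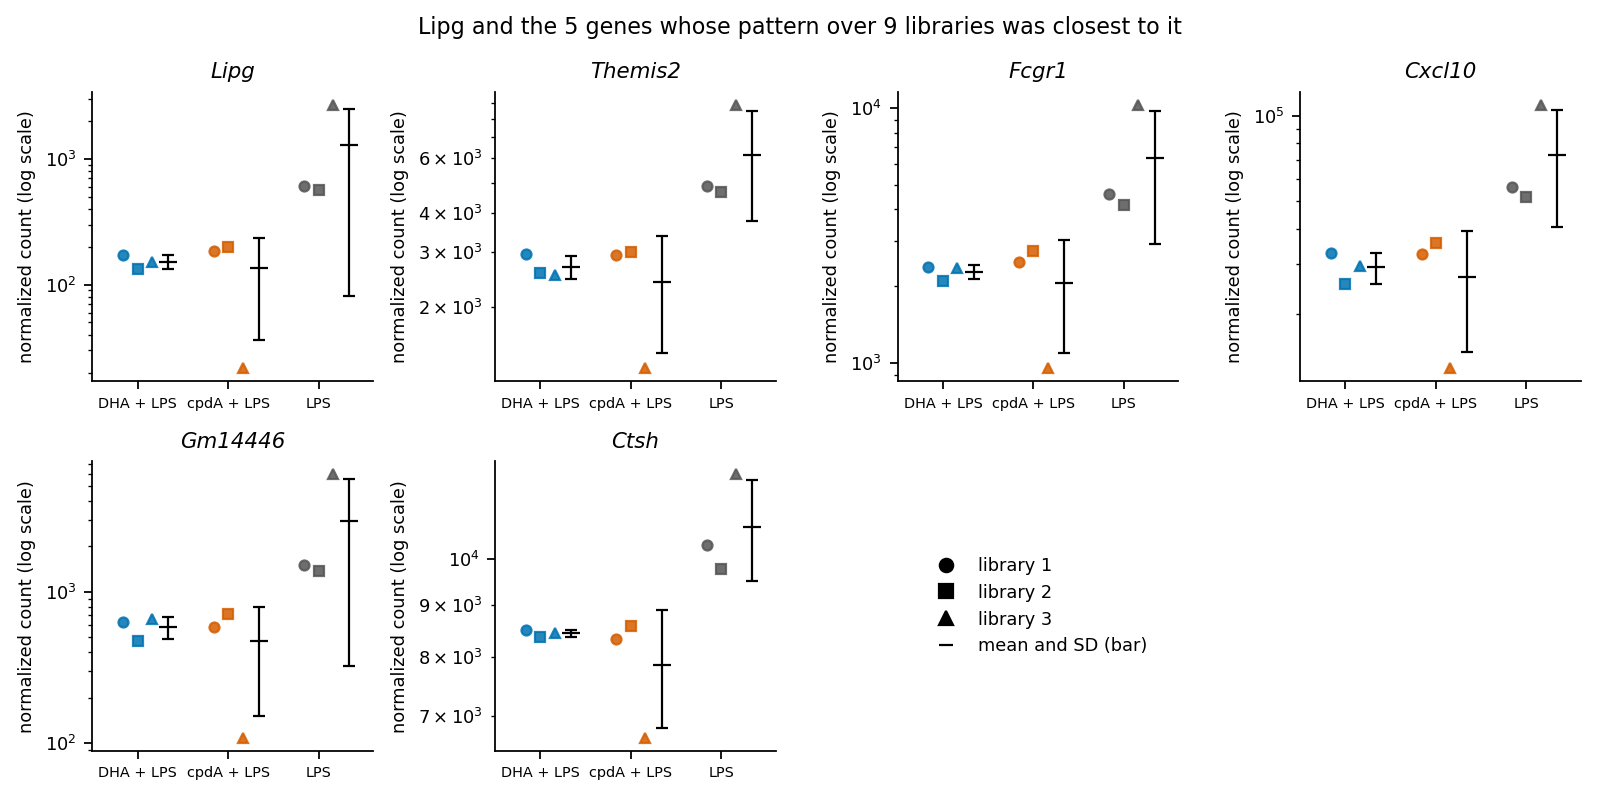
Normalized counts on log axes of Lipg and the 5 genes whose values over the 9 libraries correlated most with it (r of 0.994 to 0.999); points are libraries, grouped as DHA, cpdA and LPS from left to right, and black bars are the mean and SD. In each panel cpdA 3 is the lowest point, LPS 3 the highest, and all pretreated libraries lie below all LPS libraries.

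Lpl (Entrez 16956) showed no such separation. It had 89027, 83127 and 91357 in DHA and 87281, 92346 and 66732 in cpdA, against 90252, 95101 and 63167 in LPS. The groups overlapped, and the 2 lowest values were those of LPS 3 and cpdA 3. The log2 change was 0.11 in DHA against LPS (95% interval -0.37 to 0.58; limma adjusted p = 0.846) and -0.0038 in cpdA against LPS (-0.48 to 0.47; limma adjusted p = 0.995). Across the 9 libraries its r with Lipg was -0.03. Apoc2, the apolipoprotein that activates Lpl, named here for that role and after its values were seen, had 49.0, 49.6 and 43.4 in DHA and 49.7, 30.3 and 46.2 in cpdA, against 43.5, 44.9 and 52.2 in LPS, also with overlap.

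Lipa (Entrez 16889) was higher in every pretreated library than in every LPS library, without passing the test. Its normalized counts were 25326, 37271 and 31945 in DHA and 25385, 24324 and 50179 in cpdA, against 22992, 22579 and 22112 in LPS. The LPS libraries were nearly level, DHA 1, cpdA 1 and cpdA 2 lay just above them, and DHA 2, DHA 3 and cpdA 3 lay well above. The means were 31514 ± 5984 in DHA, 33296 ± 14631 in cpdA and 22561 ± 440.3 in LPS (SD, n = 3 each). The log2 change was 0.46 in DHA against LPS (SE 0.27; limma adjusted p = 0.454) and 0.48 in cpdA against LPS (SE 0.27; limma adjusted p = 0.443). Without cpdA 3 the cpdA value was 0.14.

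Abhd5 (Entrez 67469), the coactivator of Pnpla2, had 1289, 1394 and 1423 in DHA and 1368, 1282 and 1433 in cpdA, against 1253, 1205 and 1201 in LPS. All pretreated libraries lay above all LPS libraries by a small margin. The log2 change was 0.16 in each comparison with LPS (SE 0.08 each), with limma adjusted p = 0.387 for DHA and 0.395 for cpdA. Without LPS 3 and cpdA 3 it was 0.15 for DHA (limma adjusted p = 0.285) and 0.11 for cpdA (limma adjusted p = 0.733).

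Pnpla2 (Entrez 66853), which takes the first fatty acid from a droplet triglyceride, had 1895, 2267 and 1873 in DHA and 1905, 1615 and 2814 in cpdA, against 1486, 1517 and 1985 in LPS. With all libraries the groups overlapped, since LPS 3 lay above DHA 1, DHA 3, cpdA 1 and cpdA 2. The log2 change was 0.28 in DHA (limma adjusted p = 0.539) and 0.32 in cpdA (limma adjusted p = 0.492). Without LPS 3 and cpdA 3, Pnpla2 was higher in DHA than in LPS by 0.42 (SE 0.10; limma adjusted p = 0.0355) and passed the threshold of 0.05, in a fit that called 6.79% of all genes. In cpdA against LPS the value without these libraries was 0.22 (limma adjusted p = 0.490).

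Lipe (Entrez 16890), which acts on diglycerides and cholesteryl esters, ran in the other direction. It had 638, 521 and 509 in DHA and 686, 591 and 431 in cpdA, against 736, 717 and 898 in LPS. Every pretreated library was below every LPS library, with LPS 3 highest and cpdA 3 lowest. The log2 change was -0.50 in DHA (SE 0.18; limma adjusted p = 0.293) and -0.48 in cpdA (SE 0.18; limma adjusted p = 0.280), neither of which passed the test. Without LPS 3 and cpdA 3 it was -0.39 in DHA (limma adjusted p = 0.0620) and -0.19 in cpdA (limma adjusted p = 0.649). Over the 9 libraries Lipe had an r of 0.94 with Lipg, the highest among the lipases, where Pnpla2 had -0.62, Lipa -0.84, Mgll -0.85 and Abhd5 -0.85. When LPS 3 and cpdA 3 were left out, r was 0.80 for Lipe, 0.59 for Lpl, -0.34 for Mgll, -0.73 for Lipa, -0.82 for Abhd5 and -0.86 for Pnpla2, so the values for Mgll and Lpl rested on those libraries. All are descriptions of libraries that share their groups.

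Lipe is also an adipocyte gene. Of 8 adipocyte markers 1 was in the table, the glycerol channel gene Aqp7, with normalized counts of 4.5 to 17.8 in DHA, 17.2 to 30.8 in cpdA and 13.3 to 21.7 in LPS. Adipoq, Lep and the other adipocyte markers were not analysed here, and the part of adipocytes in the Lipe values was not tested.

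Mgll (Entrez 23945), which completes the removal of fatty acids and also breaks down the endocannabinoid 2-arachidonoylglycerol, had 4958, 5883 and 5056 in DHA and 5131, 4424 and 6428 in cpdA, against 5024, 4809.9 and 2466 in LPS. LPS 3 was far below every other library, and the groups otherwise overlapped. The log2 change of 0.44 in DHA (limma adjusted p = 0.465) and 0.43 in cpdA (limma adjusted p = 0.471) came down to 0.10 in each comparison without LPS 3 alone.

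**Figure D3:**
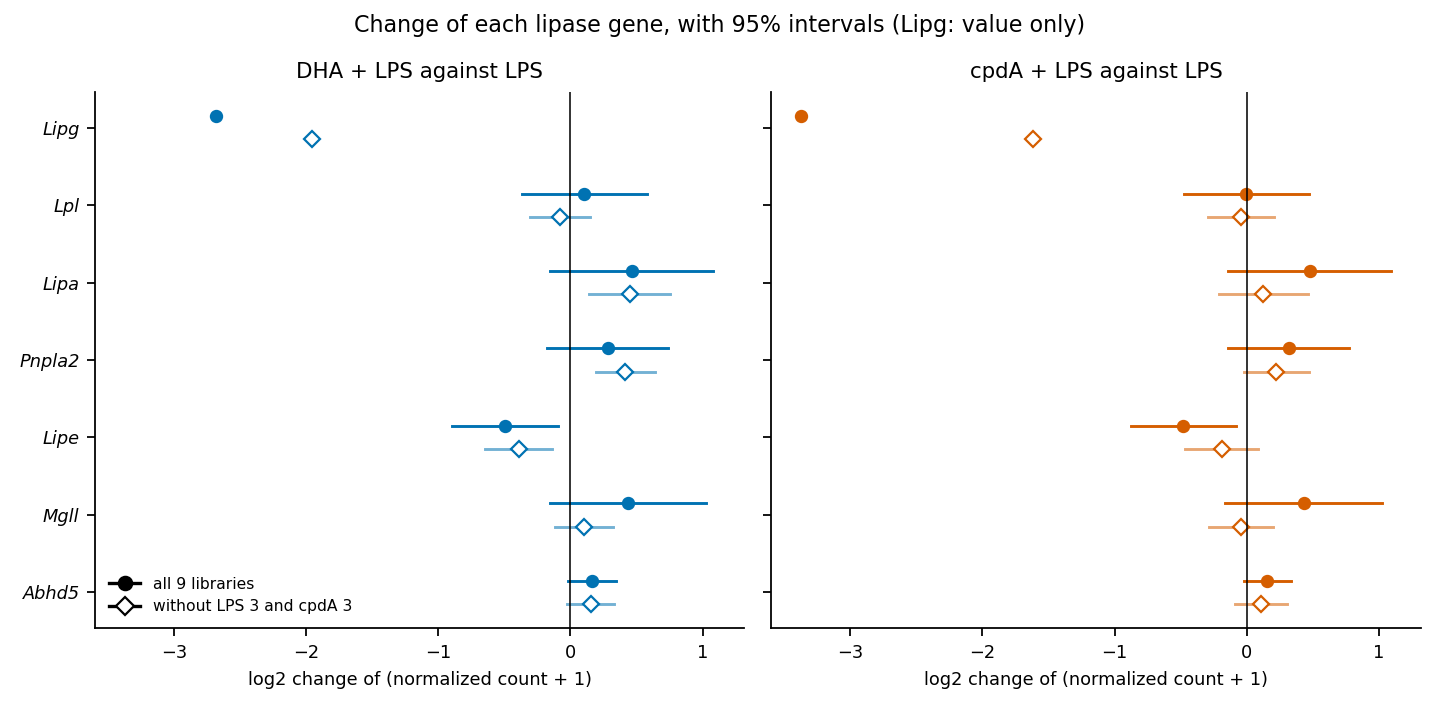
Log2 change of each lipase gene in DHA (left) and cpdA (right) against LPS, with 95% intervals from limma; filled circles use all 9 libraries, open diamonds leave out LPS 3 and cpdA 3, and Lipg has no interval because it was not tested. Lipg lies between -3.37 and -1.62 and the other genes between -0.50 and 0.48.

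None of the 6 tested genes passed the threshold with all 9 libraries in either comparison with LPS. This count of 0 held in limma, edgeR and DESeq2, and at an unadjusted p under 0.05 in limma Lipe passed in each comparison. Over all 13895 genes, limma called 0.0072% in DHA against LPS and 0.0072% in cpdA against LPS, and at the unadjusted threshold the shares were 14.2% and 14.6%. The shares called were 0.0216% and 0.0072% in edgeR. In DESeq2 they were 2.31% and 3.26% of the genes with an adjusted p. 3 of the 6, namely Lipa, Abhd5 and Lipe, had groups that did not overlap in DHA against LPS, beside 28% of all genes, and the same 3 in cpdA against LPS, beside 22.9%. Leaving out LPS 3 and cpdA 3, Pnpla2 joined them in each comparison, which made 4 of 6 beside 40.6% of all genes in DHA (19.1% higher and 21.5% lower) and 49.5% in cpdA (24.5% higher and 25% lower). In that fit Lipa, Pnpla2 and Lipe had an unadjusted p under 0.05 in DHA, beside 23.2% of all genes, and none of the 6 did in cpdA, beside 11.7%. With the replicate number as a block, limma called 0 genes in cpdA against LPS, against 1 without it. The comparisons use the same LPS libraries, so they are not separate evidence. The median log2 change over all genes was below 0.005 in size in both comparisons.

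RefSeq promoter sequences were at hand for 6 of the 8 lipase genes. Those of the 3 genes just named are shown because they separated the pretreated from the LPS libraries; each is the 250 bases before the start in build GRCm38.p6, 5′ to 3′ on the strand of the gene, with motif matches on either strand in capitals. The motifs searched were the E-box CACGTG, the GC box GGGCGG and the CCAAT box CCAAT, which share no letters in a match here except among GC boxes. The sequence of Lipa lies at chr19:34527475-34527724 on the minus strand, that of Abhd5 at chr9:122351366-122351615 on the plus strand, and the first of 2 entries for Lipe at chr7:25395988-25396237 on the minus strand.
Lipa: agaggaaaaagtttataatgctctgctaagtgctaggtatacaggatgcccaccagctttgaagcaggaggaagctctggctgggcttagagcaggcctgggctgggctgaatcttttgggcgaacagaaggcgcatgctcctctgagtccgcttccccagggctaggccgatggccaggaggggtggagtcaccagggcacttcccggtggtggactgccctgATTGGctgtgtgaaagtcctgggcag
Abhd5: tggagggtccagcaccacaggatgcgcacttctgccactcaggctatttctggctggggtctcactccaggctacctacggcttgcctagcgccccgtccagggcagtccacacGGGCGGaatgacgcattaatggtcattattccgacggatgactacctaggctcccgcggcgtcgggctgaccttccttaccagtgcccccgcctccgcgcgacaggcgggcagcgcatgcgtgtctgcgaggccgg
Lipe: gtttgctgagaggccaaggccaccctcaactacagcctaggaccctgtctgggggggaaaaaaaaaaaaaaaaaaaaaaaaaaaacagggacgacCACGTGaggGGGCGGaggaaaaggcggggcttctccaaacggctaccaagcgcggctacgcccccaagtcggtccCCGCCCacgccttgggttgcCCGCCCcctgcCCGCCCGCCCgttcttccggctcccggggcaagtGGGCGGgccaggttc

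The Lipe sequence held 1 E-box, whose first base lies 155 bases before the start, and 6 GC boxes, 2 of which overlap by sharing bases. Abhd5 held 1 GC box and Lipa 1 CCAAT box, read on the minus strand. Among 32851 promoters of the same length, 6.02% held the E-box, 32.7% a GC box and 33.8% a CCAAT box. A match is a string of letters and not a measured binding site.

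Genes that control lipases were described from 4 lists, all chosen with earlier results of these data known. Setting their counts beside the share of all genes is therefore a description and not a test. Of 14 lipase partners 9 were kept, and none of them passed the limma test in DHA or cpdA against LPS. In limma 1 had an unadjusted p under 0.05 in each, beside 14.2% of all genes in DHA and 14.6% in cpdA. edgeR called 0 in either comparison, beside 0.0216% of all genes in DHA and 0.0072% in cpdA. DESeq2 called 0 in DHA, where it called 2.31% of all genes. In cpdA, where it called 3.26%, it called 1, Angptl4 (DESeq2 adjusted p = 0.00381). 3 of the 9 were higher without overlap in DHA, beside 13% of all genes, and 3 in cpdA, beside 10.7%. Angptl4, the secreted inhibitor of Lpl, had 807, 534.5 and 541 in DHA and 709, 778 and 883 in cpdA, against 377, 353 and 515 in LPS. Every pretreated library lay above LPS, although DHA 2 and DHA 3 only just exceeded LPS 3. The log2 change was 0.59 in DHA (SE 0.19; limma adjusted p = 0.276) and 0.94 in cpdA (SE 0.19; limma adjusted p = 0.178). Without LPS 3 and cpdA 3 it rose by 0.75 in DHA (limma adjusted p = 0.0219) and by 1.02 in cpdA (limma adjusted p = 0.0178). Sel1l, an endoplasmic reticulum protein needed for Lpl to mature, was at 0.15 in DHA (limma adjusted p = 0.454) and 0.19 in cpdA (limma adjusted p = 0.380). The median log2 change of the list was 0.02 in DHA and 0.03 in cpdA.

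The regulators of lipolysis at the droplet came next. Of 21 listed genes 15 were kept, none passed the limma test with all 9 libraries, and 5 in DHA and 6 in cpdA had an unadjusted p under 0.05. These shares stand beside 14.2% and 14.6% of all genes at that threshold. 6 of the 15 were higher and 0 lower without overlap in each comparison, beside 13% higher and 15% lower of all genes in DHA and 10.7% and 12.2% in cpdA. edgeR called 0 of them in either comparison, beside 0.0216% of all genes in DHA and 0.0072% in cpdA. DESeq2 called 3 in DHA, namely Plin2, Hilpda and Prkar2b, where it called 2.31% of all genes. In cpdA, where it called 3.26%, it called 4, the same genes and Plin3. The DESeq2 adjusted p in DHA and cpdA was 0.00459 and 0.000186 for Plin2 and 6.16e-05 and 6.60e-05 for Hilpda. For Prkar2b the DESeq2 adjusted p was 0.0161 and 0.0121, and for Plin3 it was 0.108 and 0.0420. The median log2 change of the list was 0.18 in DHA and 0.14 in cpdA, beside 0.17 and 0.13 for the other lipases below.

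Plin2, the coat protein of lipid droplets, had 25067, 25359 and 24426 in DHA and 24828, 22258 and 39055 in cpdA, against 11175, 10595 and 15607 in LPS. The pretreated libraries were all well above LPS, with log2 changes of 1.02 in DHA (SE 0.23; limma adjusted p = 0.201) and 1.18 in cpdA (SE 0.23; limma adjusted p = 0.161). Hilpda, a small droplet protein that inhibits Pnpla2, had 3310.3, 2307 and 2845 in DHA and 3136, 2809 and 2383 in cpdA, against 1610 (LPS 1), 1512 (LPS 2) and 1361 (LPS 3). Its log2 change was 0.90 in DHA (SE 0.15; limma adjusted p = 0.159) and 0.89 in cpdA (SE 0.15; limma adjusted p = 0.132). Prkar2b, a regulatory subunit of protein kinase A, which phosphorylates Lipe and perilipins, had 452.5, 463 and 519 in DHA and 425, 423 and 590.4 in cpdA, against 249, 244 and 85.9 in LPS. Its log2 change was 1.45 in DHA (SE 0.36; limma adjusted p = 0.228) and 1.44 in cpdA (SE 0.36; limma adjusted p = 0.224), with LPS 3 far below the other LPS libraries.

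Without LPS 3 and cpdA 3, Plin2, Hilpda and Prkar2b passed the limma test in both comparisons. Plin2 rose by 1.20 in DHA (limma adjusted p = 0.000128) and by 1.11 in cpdA (limma adjusted p = 0.000698). Hilpda rose by 0.84 in DHA (limma adjusted p = 0.00426) and by 0.93 in cpdA (limma adjusted p = 0.00938). Prkar2b rose by 0.95 in DHA (limma adjusted p = 0.000561) and by 0.78 in cpdA (limma adjusted p = 0.00614). Plin3, another droplet coat protein, rose by 0.68 in DHA (limma adjusted p = 0.00445) and was at 0.48 in cpdA (limma adjusted p = 0.0846). In that fit 6.79% of all genes were called in DHA and 1.6% in cpdA, against 0.0072% in each with all 9 libraries. The libraries left out were those that stand apart, chosen with earlier results known. Their removal narrows the spread that these p-values rest on.

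**Figure D4:**
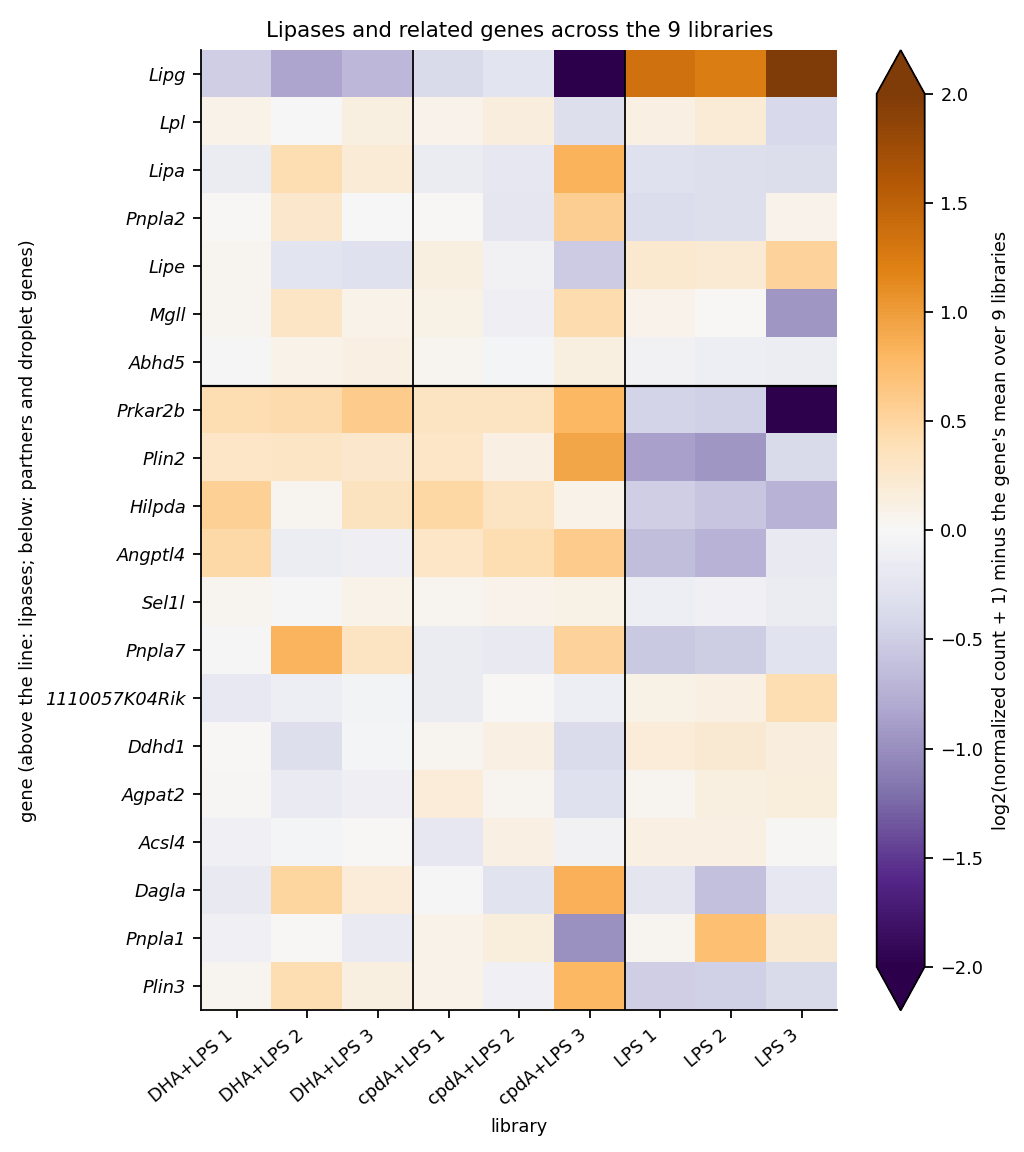
Log2(normalized count + 1) of the lipases (above the line) and of named partner, droplet and glyceride genes (below it) in each of the 9 libraries, as the difference from the gene's mean over all libraries; orange is above and purple below the mean, and differences past 2 in size take the end colours. Plin2, Hilpda, Angptl4 and Prkar2b are on the orange side in most pretreated libraries and on the purple side in LPS, opposite to Lipg.

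Of 34 other lipases 18 were kept and none passed the limma test, edgeR or DESeq2 in either comparison with LPS. DESeq2 called 2.31% of all genes in DHA and 3.26% in cpdA. In limma 4 had an unadjusted p under 0.05 in DHA, beside 14.2% of all genes, and 1 in cpdA, beside 14.6%. Without LPS 3 and cpdA 3 these were 10 in DHA, beside 23.2%, and 0 in cpdA, beside 11.7%. With all 9 libraries, 5 were higher and 3 lower without overlap in DHA, beside 13% and 15% of all genes. In cpdA 1 was higher and 2 lower, beside 10.7% and 12.2%. Pnpla7, a lysophospholipase, had 1293, 2304 and 1634 in DHA and 1179.7, 1156 and 1892 in cpdA, against 905, 922 and 1086 in LPS, with log2 changes of 0.81 in DHA (limma adjusted p = 0.259) and 0.50 in cpdA (limma adjusted p = 0.368). The lipid droplet-associated hydrolase Ldah, listed under the older symbol 1110057K04Rik, was at -0.34 in DHA (limma adjusted p = 0.262) and -0.30 in cpdA (limma adjusted p = 0.259). Ddhd1, a phospholipase of phosphatidic acid, was at -0.30 in DHA (limma adjusted p = 0.430) and -0.25 in cpdA (limma adjusted p = 0.502). Dagla, which makes 2-arachidonoylglycerol, was at 0.53 in DHA (limma adjusted p = 0.434) and 0.55 in cpdA (limma adjusted p = 0.417). Pnpla1, a skin lipid enzyme, was at -0.41 in DHA (limma adjusted p = 0.561) and -0.57 in cpdA (limma adjusted p = 0.426).

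No gene of the list of enzymes that build glycerides and steryl esters was called. Of 20 listed genes 16 were kept, and none passed the limma test, edgeR or DESeq2. DESeq2 called 2.31% of all genes in DHA and 3.26% in cpdA. In limma 0 had an unadjusted p under 0.05 in either comparison, beside 14.2% of all genes in DHA and 14.6% in cpdA. In DHA 2 were lower without overlap, Agpat2 at -0.19 and Acsl4 at -0.13, beside 15% of all genes, and in cpdA 0 were, beside 12.2%. With LPS 3 and cpdA 3 left out, 5 were lower without overlap in DHA, beside 21.5% of all genes. In cpdA 4 were lower, beside 25%, and 1 was higher, beside 24.5%. In that fit 2 had an unadjusted p under 0.05 in DHA, beside 23.2% of all genes, and 2 in cpdA, beside 11.7%. With all 9 libraries, several others had changes with wide errors. Lpin1, a phosphatidate phosphatase, was at 0.91 in DHA and 0.18 in cpdA (SE 0.54 each). It was uneven, with 118, 550.3 and 300.5 in DHA 1, 2 and 3, against 184, 172 and 93.1 in LPS. Acsl3, an acyl-CoA synthetase, was at -0.45 in each comparison (SE 0.23 each). Without LPS 3 and cpdA 3, Acsl3 was at -0.61 in DHA (limma adjusted p = 0.130) and -0.73 in cpdA (limma adjusted p = 0.244). It was then lower without overlap in each comparison. Lpin1 and Acsl3 were named after their values were seen. With all 9 libraries the median log2 change of the list was -0.09 in DHA and -0.02 in cpdA.

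The pretreatments themselves, cpdA and DHA, did not separate the lipases. The doses differed, at 10 µM for cpdA and 100 µM for DHA, and none of the 6 tested genes passed the test in cpdA against DHA in limma, edgeR or DESeq2, or at an unadjusted p under 0.05. All 7 genes had overlapping groups, beside 5.65% of all genes without overlap, and limma, edgeR and DESeq2 called 0 genes in all, with 1.02% in limma at an unadjusted p under 0.05. The intervals allow differences in either direction. The cpdA minus DHA difference was 0.01 for Lipa (95% interval -0.60 to 0.63), 0.04 for Pnpla2 (-0.42 to 0.49), 0.02 for Lipe (-0.38 to 0.41), -0.01 for Abhd5 (-0.19 to 0.17), -0.01 for Mgll (-0.60 to 0.59) and -0.11 for Lpl (-0.58 to 0.36). Abhd5 had the narrowest interval. For Lipg the difference was -0.69 with all libraries and 0.34 without cpdA 3, so its direction rested on that library. Leaving out LPS 3 as well, limma called 0 genes, and the Lipg groups no longer overlapped, beside 19% of all genes. In that fit Lipa was at -0.32 (limma adjusted p = 0.754) and alone among the tested lipases had an unadjusted p under 0.05, beside 5.04% of all genes. Between DHA 1 and cpdA 1 the lipases differed by at most 1.08-fold.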

How the data were processed

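The signal values in the deposited table are read counts that the authors divided by a size factor for each library and rounded to 1 decimal, as the values show. Per the submitters' processing notes, CASAVA 1.8.2, Bowtie2, DESeq and the build mm9 were used; the counter, annotation and strand setting were not given in the sources used here. Reads of overlapping and antisense genes therefore cannot be told apart. Groups follow the sample titles.

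Whole reads were recovered from each library's step (99.9% to 100% of values within 0.05). Genes with a value of at least 10 in at least 3 of 9 libraries were kept. log2(value + 1) was fitted in limma 3.58.1 (R 4.3.3, statmod 1.5.0) with a mean per group, all 9 libraries in 1 fit, trend and robust options, and Benjamini-Hochberg adjustment over 13895 genes at 0.05; this scale understates changes of low genes. On the recovered reads, edgeR 4.0.16 called 3, 1 and 0 genes and DESeq2 1.42.0 called 315, 391 and 0 in DHA against LPS, cpdA against LPS and cpdA against DHA. For 279, 1895 and 9 genes, none of them a lipase of the set, the DESeq2 adjusted p was missing. Intervals are at 95%.

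The lipases, the gene lists, the markers and the removal of LPS 3 and cpdA 3 were chosen with earlier results of these data known. Named genes are all the lipases and, of each list, members past the threshold or else the 3 largest log2 changes among genes whose groups did not overlap and whose higher group averaged at least 50. The counts of list members without LPS 3 and cpdA 3 were added after seeing the data.

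What a replicate number stands for is not stated. Deviations of same-number cpdA and LPS libraries from their group means correlated across genes at 0.387, 0.234 and 0.437, above 0.1 in each pair. However, cpdA 1 with LPS 2 (0.292) and cpdA 2 with LPS 1 (0.264) also exceeded 0.234. The libraries that stand apart share a replicate number, and deviations within a group balance out. Likeness of those libraries can therefore make the other cpdA and LPS pairs correlate, so these values cannot show pairing. The libraries were not treated as paired, and p-values come from the fit without the block. The fit with the block also took in the DHA libraries. Same-number DHA and LPS libraries correlated at 0.140, -0.07 and 0.02, and cpdA and DHA libraries at 0.407, -0.35 and 0.01, which does not pair them.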

Additional observations from a re-analysis of the deposited data

How the results depend on the processing

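Depth, at 24 to 2622 reads for Lipg, limits its value in cpdA 3 most. None of the 6 tested lipases was called under any alternative but 1: Pnpla2 in DHA against LPS without LPS 3 and cpdA 3, where 1 lipase and 943 genes were called, with 222 genes in cpdA against LPS. With the replicate block, 0 genes were called in DHA against LPS and 0 in cpdA against LPS, against 1 in each without it, and the block changed no call of a lipase. Genes called in DHA against LPS numbered 3 with a filter of 50, 3 with TMM scaling, 3 with edgeR, 315 with DESeq2, 0 without the trend and robust options and 9 with only the groups compared; in cpdA against LPS they were 391 with DESeq2 and 0 without the trend and robust options and 0 with only the groups compared. Leaving out each library in turn gave 0 to 373 genes in DHA against LPS (373 without cpdA 3) and 0 to 3 in cpdA against LPS.

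The Lipg difference without LPS 3 and cpdA 3 was -1.62 in cpdA against LPS and 0.34 in cpdA against DHA; leaving out each library in turn it ranged from -1.23 to 0.34 in cpdA against DHA. Direction turned for values near 0. Lpl was at 0.0046 with TMM scaling and 0.32 with quantile normalization in cpdA against LPS, and at -0.08 in DHA against LPS without LPS 3 and cpdA 3, where Mgll was at -0.05 in cpdA against LPS. In cpdA against DHA, quantile normalization gave 0.01 for Lpl, 0.05 for Mgll and 0.01 for Abhd5, edgeR and DESeq2 gave 0.01 each for Mgll, and without LPS 3 and cpdA 3 Lpl was at 0.03, Lipa at -0.32 and Pnpla2 at -0.19. Leaving out each library in turn, Lpl ranged from -0.08 to 0.22 in DHA against LPS and from -0.19 to 0.14 in cpdA against LPS. In cpdA against DHA the ranges were -0.20 to 0.03 for Lpl, -0.32 to 0.20 for Lipa, -0.19 to 0.21 for Pnpla2, -0.13 to 0.20 for Lipe, -0.15 to 0.12 for Mgll and -0.05 to 0.03 for Abhd5. Except where a library was left out, the cause was not tested.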

Other observations

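A few other lipid genes of the lists were uneven between libraries of a group. They were picked after their values were seen and are given with no test. Nceh1, a neutral cholesteryl ester hydrolase of macrophages, had 1795, 4799 and 3325 in DHA and 1799.8, 2001 and 3999 in cpdA, against 1822, 1842 and 3219 in LPS. Pla2g15, the lysosomal phospholipase A2, had 1552, 2861 and 1981 in DHA and 1608, 1533 and 3324 in cpdA, against 1576, 1692 and 1829.5 in LPS. Both were highest in DHA 2 and cpdA 3. Soat1, which esterifies cholesterol for storage, had 5063, 9204 and 7435 in DHA and 5015, 5269.7 and 11046 in cpdA, against 4692, 5214 and 6164 in LPS, with the same libraries high. Lipa was highest in cpdA 3, DHA 2 and DHA 3 as well, as given above.

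Acsl1, an acyl-CoA synthetase, was low in the libraries that stand apart: 22062, 14672 and 19056 in DHA and 21422, 20696 and 4583 in cpdA, against 17107, 16701 and 7042 in LPS. Pla1a, a phospholipase specific for phosphatidylserine, had 227, 161 and 199 in DHA and 236, 222 and 15.4 in cpdA, against 286, 233 and 214 in LPS, with cpdA 3 alone far below.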
